A study of Mus musculus with 8 samples.

Results

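The expression of Wnt target genes and stem cell receptors was examined in mouse bile duct and pancreatic duct. The members were the 10 genes named Lgr5, Lgr4, Rnf43, Znrf3, Axin2, Nkd1, Sp5, Ascl2, Tnfrsf19 and Prom1, out of 31228 genes in the deposited table. The rule used gene names and no measured value, but the members were chosen with earlier results of these data known. All samples came from C57BL/6 mice, whose age and sex are not given in the sources used here. There were 4 groups: 1 library of extrahepatic bile duct epithelium and 1 of pancreatic duct epithelium, both lysed in Trizol straight after dissection and collagenase digestion and called fresh bile duct and fresh pancreatic duct below, and 3 libraries each of bile duct organoids and pancreatic duct organoids, which are hollow epithelial cultures grown in Matrigel for 3 to 4 passages. The expansion medium of both organoid groups contained R-Spondin-1 at 100 ng/mL, EGF at 50 ng/mL, Noggin at 25 ng/mL and FGF10 at 100 ng/mL. It also contained 30% Wnt3A conditioned medium and the kinase inhibitor Y27632, and both were withdrawn once hollow organoids had formed. No label says whether the replicates came from separate animals or cultures, so the p-values below measure only the spread between these samples, which may be technical. Each organ had a single epithelium library, so differences from 1 epithelium have no replicate check.

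Canonical Wnt signalling stabilises beta-catenin, which enters the nucleus and activates target genes together with TCF/LEF factors. R-spondins bind LGR4, LGR5 and LGR6 and thereby remove the membrane ubiquitin ligases RNF43 and ZNRF3, which otherwise take Frizzled receptors off the cell surface. Axin2, Nkd1, Rnf43 and Znrf3 are at once targets of the pathway and brakes on it, Lgr5 and Ascl2 mark stem cells of the intestinal crypt, and R-spondin in the medium is a common component of duct organoid culture.

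Read numbers recovered from the table came to between 12876470 and 20828216 per library. Values are in FPKM, fragments scaled by exon length and by sequencing depth, so levels can be set side by side between genes. The 14 duct epithelium markers summed to 2740 FPKM in fresh bile duct, 682 in fresh pancreatic duct and 5908 to 11596 in the organoids. By the comparison given below, 10 of them rose in organoids and none fell, where 32.7% of all genes tested rose and 26.6% fell. Both libraries labelled epithelium also held markers of other cell types: 12 pancreatic acinar markers summed to 22801 FPKM in fresh bile duct and 46551 in fresh pancreatic duct, against 1.65 to 8.30 in the organoids, and 8 smooth muscle markers to 2098 and 3573 against 0.928 to 2.79. The 12 proliferation genes summed to 79.7 and 51.9 FPKM in the epithelia and 266 to 626 in the organoids, and all 12 rose. In bulk RNA of this kind, fewer cells of a type and less RNA per cell cannot be told apart. The plot of marker sums shows the list totals in each library.

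**Figure D1:**
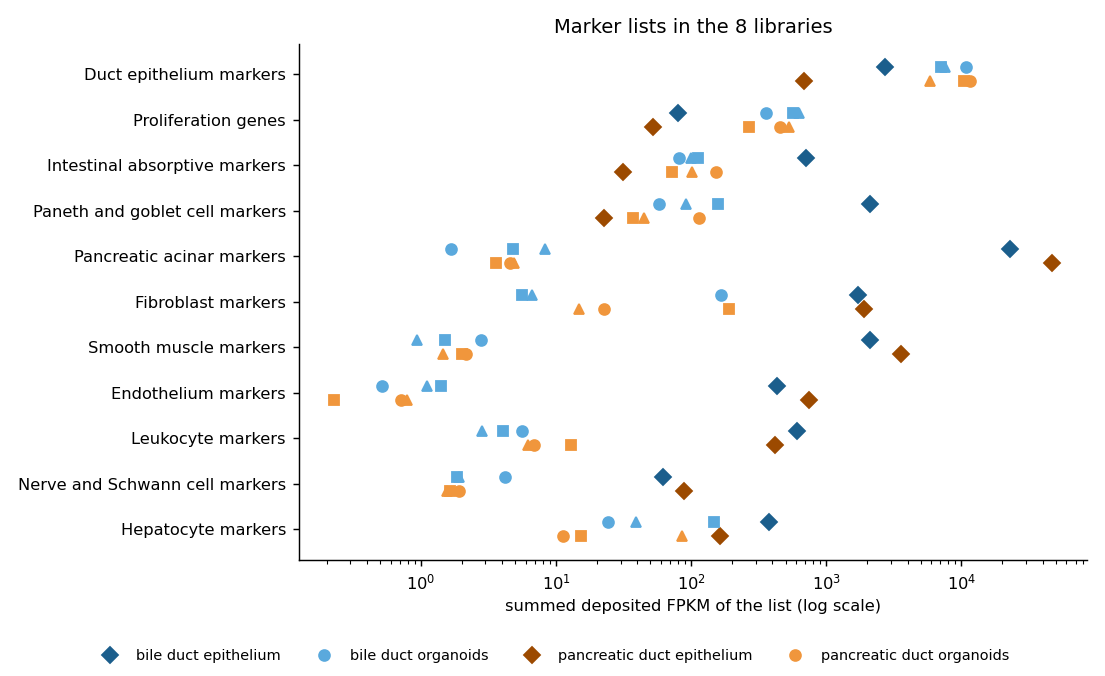
Summed deposited FPKM of each cell type or proliferation list (horizontal log axis) in the 8 libraries. Diamonds are the epithelia, and circles, squares and triangles are organoids 1, 2 and 3. Acinar, smooth muscle, endothelium, leukocyte and nerve markers lie lower in all 6 organoids than in both epithelia, and duct and proliferation genes higher.

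Organoids were compared with epithelia by limma with the organ as covariate, on log2(FPKM + 1) after scaling between libraries, so that differences understate the change of low genes. Of the 10 members, Lgr4, Rnf43 and Znrf3 rose, Nkd1 and Tnfrsf19 fell, and 5 did not pass an adjusted p of 0.05. Among all 14919 genes tested, 32.7% rose, 26.6% fell and 59.2% passed in either direction, so the share of members called was no higher than the share of all genes. The members' median difference was 0.90 and that of all genes 0.12 on the log2 scale. The median of all genes was 0.23 with FPKM left unscaled and -0.04 with median of ratios scaling, and the differences below are to be read against that shift. Every organoid lay above both epithelia for Lgr5, Rnf43, Znrf3 and Axin2 and below both for Nkd1 and Tnfrsf19, where the shares of all tested genes were 35.7% and 28.0%. For Lgr5, pancreatic duct organoid 1 and fresh bile duct overlapped within counting error. The duct epithelium and proliferation lists rose together with Lgr4, Rnf43 and Znrf3, and their part in these results was not tested. The plot of the members by library gives the single values.

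**Figure D2:**
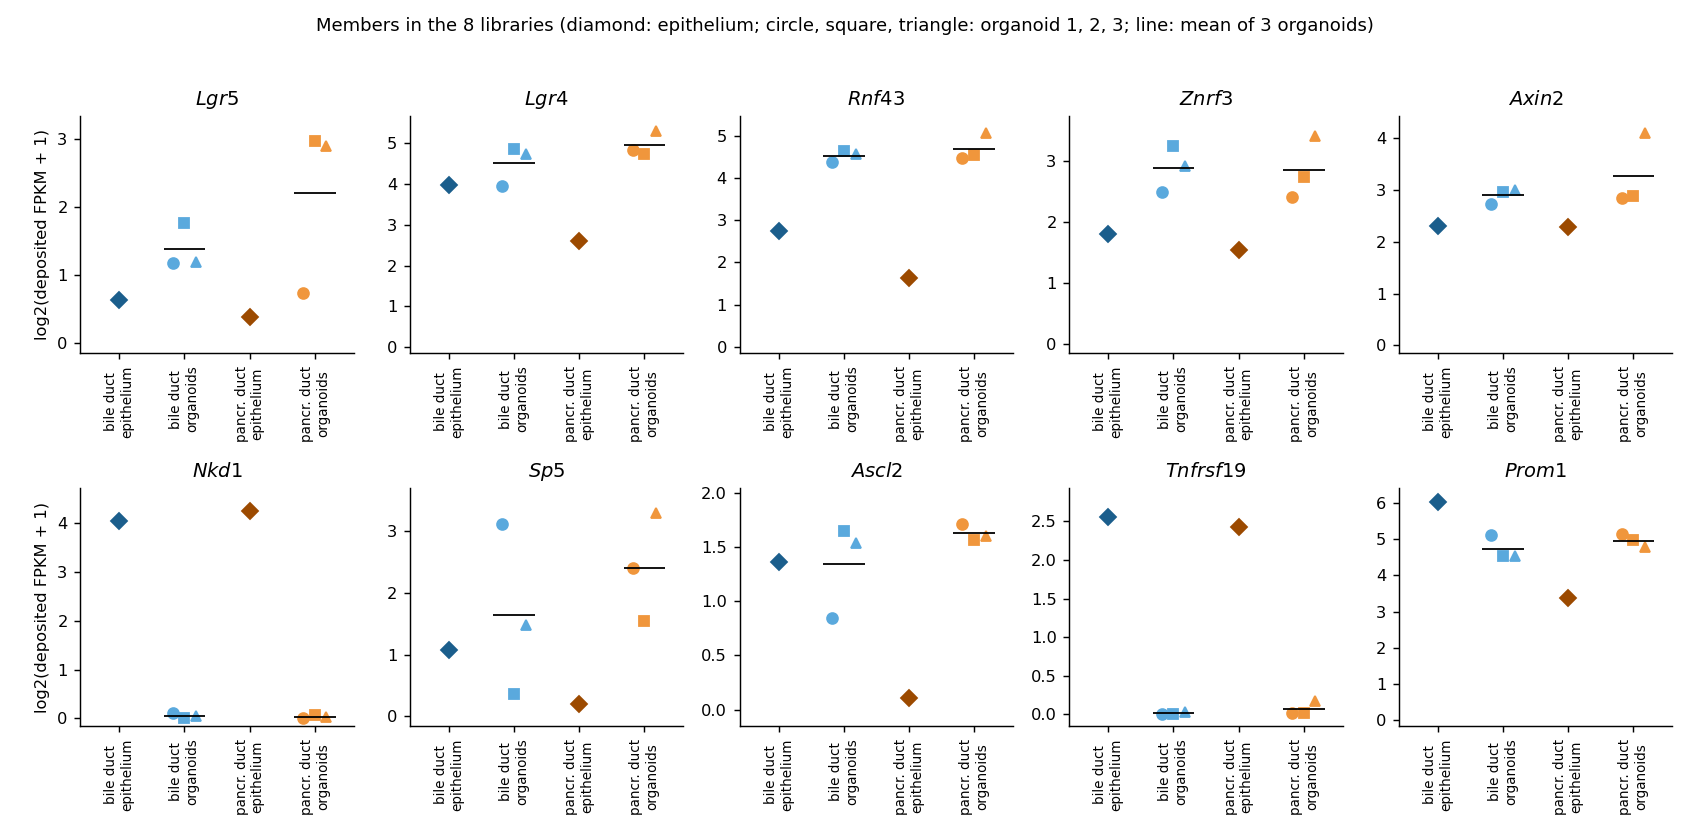
Level of each member in each library, as log2(deposited FPKM + 1) on the vertical axis, with a separate scale per gene. Diamonds are epithelia, and circles, squares and triangles are organoids 1, 2 and 3 of each organ, with a line at the mean of the 3. Nkd1 and Tnfrsf19 sit near 0 in all organoids, and Lgr5 and Sp5 spread widely between organoid libraries.

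The R-spondin receptor Lgr5 (ENSMUSG00000020140, chr10:115450311-115587780, minus strand, GRCm38) was low in both epithelia, at 0.545 FPKM in fresh bile duct (72 reads) and 0.296 in fresh pancreatic duct (47 reads). Bile duct organoids 1, 2 and 3 had 1.26, 2.42 and 1.28 FPKM, and pancreatic duct organoids had 0.670, 6.85 and 6.48. Thus every organoid exceeded both epithelia, but pancreatic duct organoid 1 lay below all bile duct organoids while the other pancreatic duct organoids lay above them. Exact 95% intervals for counting error overlapped between pancreatic duct organoid 1 (0.549 to 0.811 FPKM) and fresh bile duct (0.426 to 0.686). The log2 difference of organoids from epithelia was 1.24 (SE 0.61, adjusted p = 0.118, limma), which did not pass. Without pancreatic duct organoid 1 it was 1.54 and passed (adjusted p = 0.0216, limma), and in the other 16 alternatives it did not pass. It was 0.70 without pancreatic duct epithelium and 1.78 without bile duct epithelium.

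Lgr4 (ENSMUSG00000050199, chr2:109917647-110014257, plus strand), the more widely expressed R-spondin receptor, stood far above Lgr5 in each library. Its level was 14.9 FPKM in fresh bile duct and 5.08 in fresh pancreatic duct, then 14.4, 28.1 and 25.9 in bile duct organoids and 27.6, 25.7 and 38.4 in pancreatic duct organoids. All 3 pancreatic duct organoids lay above their epithelium, whereas bile duct organoid 1 lay at the level of its own. Lgr4 rose by 1.32 on the log2 scale over both organs (SE 0.41, adjusted p = 0.0280, limma). The call was lost with median of ratios scaling (1.15, adjusted p = 0.0509), without bile duct organoid 2 (1.30, 0.0519) and without pancreatic duct organoid 1 (1.29, 0.0543), all by limma. It was also lost without pancreatic duct epithelium, where the difference was 0.41 and rested on the 1 epithelium left. By organ the difference was 0.42 ± 0.44 (SD, n = 3) for bile duct and 2.23 ± 0.25 (SD, n = 3) for pancreatic duct organoids.

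Rnf43 (ENSMUSG00000034177, chr11:87662722-87735539, plus strand), the ubiquitin ligase that clears Frizzled receptors, had 5.74 FPKM in fresh bile duct and 2.08 in fresh pancreatic duct. Bile duct organoids had 20.0, 23.9 and 22.9 FPKM and pancreatic duct organoids 21.2, 22.6 and 32.5. The 6 organoids lay close together and well above both epithelia. Rnf43 rose by 2.32 (SE 0.28, adjusted p = 0.000388, limma), and in all 17 alternatives run it stayed called, with differences between 1.67 and 2.96. The increase was 1.68 ± 0.07 (SD, n = 3) over bile duct epithelium and 2.97 ± 0.27 (SD, n = 3) over pancreatic duct epithelium.

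Its homologue Znrf3 (ENSMUSG00000041961, chr11:5276324-5444847, minus strand) was at 2.48 FPKM in fresh bile duct and 1.93 in fresh pancreatic duct. It reached 4.66, 8.55 and 6.60 FPKM in the 3 bile duct organoids and 4.36, 5.71 and 9.63 in pancreatic duct organoids. Again no organoid overlapped an epithelium. Znrf3 rose by 1.10 (SE 0.27, adjusted p = 0.00982, limma). The call needed both epithelia, and the difference was 1.20 without bile duct epithelium and 1.00 without pancreatic duct epithelium.

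Axin2 (ENSMUSG00000000142, chr11:108920349-108950783, plus strand), a scaffold of the beta-catenin destruction complex and a widely used readout of Wnt activity, stood at like levels in the epithelia, 3.94 FPKM in fresh bile duct and 3.90 in fresh pancreatic duct. Bile duct organoids had 5.66, 6.85 and 7.05 FPKM, and pancreatic duct organoids 6.18, 6.36 and 16.1. Pancreatic duct organoid 3 stood apart from the other 5 organoids, which lay within a narrow band just above the epithelia. The difference was 0.68 (SE 0.31, adjusted p = 0.0995, limma) with all libraries and 0.48 without pancreatic duct organoid 3, where it passed (adjusted p = 0.0115, limma). It did not pass in the other 16 alternatives, among them median of ratios scaling (0.52, adjusted p = 0.189, limma). It was 0.50 without pancreatic duct epithelium and 0.85 without bile duct epithelium. Of its 5506 exon bases, 209 overlap Gm11670 on the opposite strand, and reads there cannot be told apart without strand.

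Nkd1 (ENSMUSG00000031661, chr8:88521354-88594884, plus strand), which encodes a Dishevelled-binding inhibitor of Wnt signalling, was well expressed in both epithelia and nearly undetected in culture. It had 15.6 FPKM in fresh bile duct (914 reads) and 18.03 in fresh pancreatic duct (1270 reads). Bile duct organoids held 6, 0 and 3 reads and pancreatic duct organoids 0, 4 and 2, or at most 0.0739 FPKM. The exact 95% upper limit behind 0 reads was 0.0405 FPKM in bile duct organoid 2 and 0.0525 in pancreatic duct organoid 1. The level in epithelium over the pooled organoids was 443-fold for bile duct (95% interval 232 to 972) and 737-fold for pancreatic duct (338 to 2012), exact intervals that here and below cover counting error only. The limma estimate for Nkd1 was 4.20 lower in organoids on the log2 scale, in a direction set by the filter.

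Tnfrsf19 (ENSMUSG00000060548, chr14:60963834-61046855, minus strand), known as Troy, a receptor of the tumour necrosis factor family described as a Wnt target in the crypt, showed the same split. It had 4.86 FPKM in fresh bile duct (299 reads) and 4.37 in fresh pancreatic duct (323 reads). Only 0, 0 and 2 reads were found in bile duct organoids and 1, 1 and 13 in pancreatic duct organoids. Epithelium exceeded the pooled organoids 652-fold in bile duct (179 to 5412) and 75.0-fold in pancreatic duct (44.8 to 136), and the gene fell by 2.53 (SE 0.09, adjusted p = 8.6e-07, limma).

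Nkd1 and Tnfrsf19 passed the filter of 1 FPKM in at least 2 of 8 libraries through the epithelia alone, so their difference followed from the filter and is given as a description. The same holds for 47.4% of the 3963 genes that fell, none of which reached 1 FPKM in an organoid. Marker lists of other cell types moved with them. The 10 fibroblast markers summed to 1716 FPKM in fresh bile duct, 1889 in fresh pancreatic duct and 5.64 to 189 in organoids, where 9 of 10 fell and Lum was at 0. The 8 endothelium markers summed to 431 and 749 FPKM against 0.229 to 1.41, all 8 fell, and Cldn5 was at 0 in the organoids. Among all genes tested 26.6% fell. The parts of the fibroblast and endothelium lists are as follows. All 8 endothelium markers but 1 and all 9 fallen fibroblast markers had no organoid at 1 FPKM, and the part of these lists in the Nkd1 and Tnfrsf19 results was not tested.

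Sp5 (ENSMUSG00000075304, chr2:70474923-70477729, plus strand), a zinc finger factor and direct target of beta-catenin, had the largest SD of the 8 tested members between organoid libraries. It had 1.11 FPKM in fresh bile duct (30 reads) and 0.154 in fresh pancreatic duct (5 reads). Bile duct organoids had 7.65, 0.286 and 1.79 FPKM, from 286, 12 and 69 reads, and pancreatic duct organoids 4.27, 1.92 and 8.78, from 138, 71 and 384 reads. Bile duct organoid 2 lay below its own epithelium and the other 5 organoids above both epithelia. The difference of 1.34 (SE 0.79, adjusted p = 0.182, limma) did not pass.

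The 250 bases upstream of a start site in RefSeq (GRCm38.p6) were searched on both strands for the TCF/LEF core, in 4 spellings, CTTTGAA with CTTTGAT plus CTTTGTA with CTTTGTT. Matches on opposite strands can share their end bases. Windows were matched for 8 members, with 11 start sites in all, and 2 windows held a match, 18.2% against 14.8% of 32851 windows. At least 2 matches occurred in 1.43% of all windows. The windows printed are that of Sp5 with 2 matches, that of Tnfrsf19 with a match, and that of Axin2, which holds none of these letters. Each is printed 5′ to 3′ on the strand of the gene with matches in capitals, Sp5 at chr2:70474673-70474922 (plus), Tnfrsf19 at chr14:61037988-61038237 (minus) and Axin2 at chr11:108920099-108920348 (plus).
Sp5: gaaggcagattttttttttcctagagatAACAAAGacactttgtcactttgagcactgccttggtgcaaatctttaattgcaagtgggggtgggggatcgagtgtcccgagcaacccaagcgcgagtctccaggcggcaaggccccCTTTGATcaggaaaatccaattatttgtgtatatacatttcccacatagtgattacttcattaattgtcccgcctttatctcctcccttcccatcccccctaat
Tnfrsf19: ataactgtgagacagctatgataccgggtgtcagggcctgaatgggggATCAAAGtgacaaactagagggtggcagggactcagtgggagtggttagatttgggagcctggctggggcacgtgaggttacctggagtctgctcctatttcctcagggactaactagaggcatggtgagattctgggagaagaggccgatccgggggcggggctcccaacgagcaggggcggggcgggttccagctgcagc
Axin2: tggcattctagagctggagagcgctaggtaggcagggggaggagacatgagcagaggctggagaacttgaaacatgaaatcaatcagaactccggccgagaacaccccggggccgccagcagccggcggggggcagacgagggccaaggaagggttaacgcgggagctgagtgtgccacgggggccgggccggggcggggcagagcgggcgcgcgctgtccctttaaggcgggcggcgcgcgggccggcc
A match describes the letters and no binding.

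Ascl2 (ENSMUSG00000009248, chr7:142966829-142969264, minus strand), the basic helix-loop-helix factor of intestinal stem cells, had 1.58 FPKM in fresh bile duct (33 reads) and 0.0797 in fresh pancreatic duct (2 reads). Bile duct organoids had 0.796, 2.13 and 1.91 FPKM, and pancreatic duct organoids 2.28, 1.96 and 2.04. Bile duct organoids thus lay on both sides of their epithelium, and all pancreatic duct organoids lay above theirs. The log2 difference was -0.10 ± 0.40 (SD, n = 3) for bile duct and 1.49 ± 0.09 (SD, n = 3) for pancreatic duct. Over both organs it was 0.69 (SE 0.36, adjusted p = 0.138, limma). It passed without bile duct organoid 1 (0.85, adjusted p = 0.0485, limma). It also passed, at 0.69, when each of the 4 groups had its own mean, a fit whose spread comes from the organoids alone. It was 1.49 without bile duct epithelium and -0.11 without pancreatic duct epithelium, each resting on the 1 epithelium left.

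Prom1 (ENSMUSG00000029086, chr5:43993620-44102032, minus strand) encodes prominin 1, or CD133, a membrane protein of epithelial protrusions used as a progenitor marker. Its level was 64.1 FPKM in fresh bile duct and 9.43 in fresh pancreatic duct. Bile duct organoids had 33.6, 22.4 and 22.03 FPKM, all below their epithelium, and pancreatic duct organoids 34.1, 30.3 and 26.8, all above theirs. The epithelia thus stood 6.80-fold apart (6.37 to 7.27) and the organoid groups overlapped. Per organ the difference was -1.41 ± 0.41 (SD, n = 3) for bile duct and 1.45 ± 0.22 (SD, n = 3) for pancreatic duct. The estimate over both was 0.02 (SE 0.58, adjusted p = 0.980, limma). It was 1.43 without bile duct epithelium and -1.42 without pancreatic duct epithelium, each resting on the 1 epithelium left. Of 7175 exon bases, 424 overlap Gm16401 on the opposite strand.

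**Figure D3:**
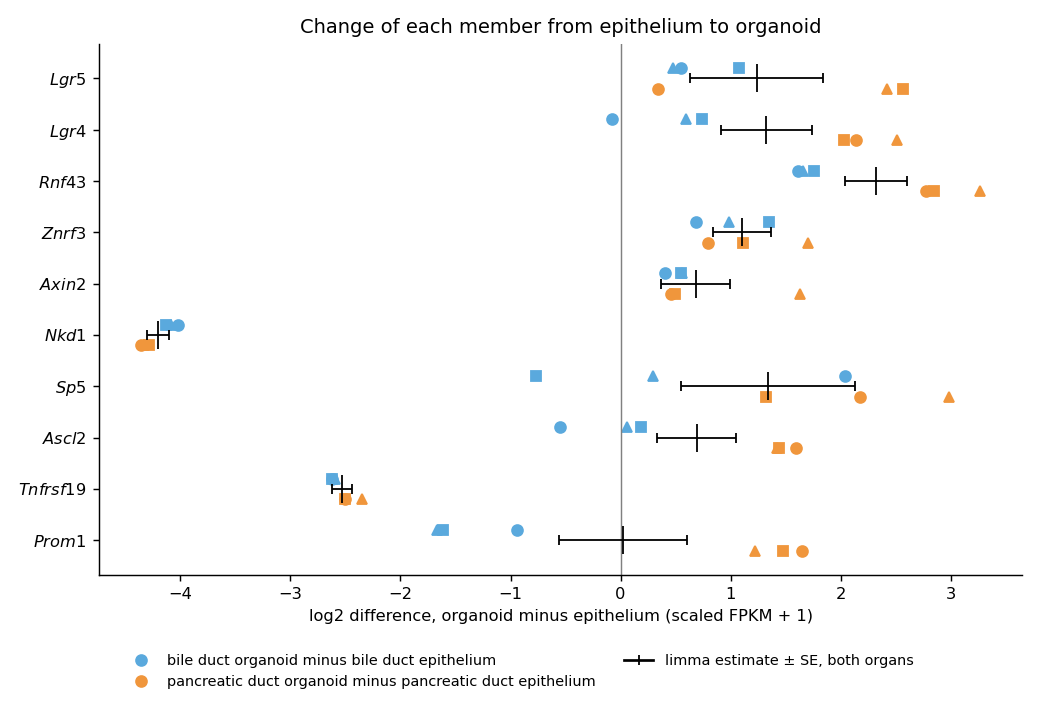
Log2 difference of each organoid from the epithelium of its own organ (horizontal axis, scaled FPKM + 1), with circles, squares and triangles for organoids 1, 2 and 3, blue for bile duct and orange for pancreatic duct. The black mark is the limma estimate over both organs with its SE. Prom1 points lie on opposite sides of 0 by organ, and Rnf43 points lie between 1.61 and 3.27.

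Single epithelia were compared by the fold of scaled FPKM + 1, which understates the fold of genes near or below 1 FPKM. Between the epithelia, 4 members were at least 2-fold higher in bile duct on this scale: Prom1 by 2.62, Lgr4 by 1.37, Ascl2 by 1.30 and Rnf43 by 1.12 on the log2 scale. None was at least 2-fold lower, while 13.3% of all genes differed by this rule, 8.79% of 15092 genes higher and 4.49% lower in bile duct. With 1 library a group this is a comparison of 2 libraries and has no test. From the reads alone Lgr4 stood 2.93-fold (2.63 to 3.27) and Rnf43 2.76-fold (2.34 to 3.26) higher in bile duct. Sp5 had a ratio of 7.20 (2.77 to 23.8, 30 against 5 reads), although its FPKM + 1 differed by 0.90 on the log2 scale, and it passed the fold with a pseudocount of 0.1 (2.26, 5 members in all). Ascl2 had one of 19.8 (5.07 to 170, 33 against 2 reads). Axin2 was at 1.01-fold (0.857 to 1.19) and Tnfrsf19 at 1.11-fold (0.946 to 1.30), intervals that include equality, and Nkd1 was at 0.864-fold (0.793 to 0.941). Lgr5 stood at 1.84-fold (1.26 to 2.72) and Znrf3 at 1.29-fold (1.07 to 1.54). Duct epithelium markers also summed higher in bile duct epithelium, as did 12 Paneth and goblet cell markers at 2091 against 22.7 FPKM and 12 intestinal absorptive markers at 708 against 31.1. The part of those cells in the values of Ascl2, Prom1, Lgr4 and Rnf43 was not tested.

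Set against their own epithelium, by the mean log2(FPKM + 1), 2 members were at least 2-fold higher in bile duct organoids (Rnf43 and Znrf3) and 3 lower (Nkd1, Tnfrsf19 and Prom1), where 39.6% of 15227 genes were either, 15.3% higher and 24.3% lower. With a pseudocount of 0.1 Lgr5 was a further member above the fold (1.28 on the log2 scale against 0.70), and with median of ratios scaling Znrf3 lay below it (0.85). Without bile duct organoid 2, Znrf3 was below the fold (0.83) and Sp5 above it (1.17). In pancreatic duct organoids 7 members were at least 2-fold higher and 2 lower (Nkd1 and Tnfrsf19), beside 41.1% of 14984 genes, 17.8% higher and 23.4% lower. Axin2 stayed below the fold on this scale at 0.86, but was above it without pancreatic duct organoid 1 (1.06) or without pancreatic duct organoid 2 (1.04), and Znrf3 was below it without pancreatic duct organoid 3 (0.96). The members' median was 0.46 in bile duct and 1.47 in pancreatic duct. The difference between organs was not tested, since each organ has 1 epithelium.

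The organoid groups were compared with 3 libraries on each side. None of the 8 members tested passed, the groups overlapped in all 8, and 0.0% of 12106 genes passed an adjusted p of 0.05 by limma. At an unadjusted p under 0.05 limma gave 310 genes, and voom on recovered reads gave 244 and also called 0. Mean levels were higher in pancreatic duct organoids for 7 of 8 members, all but Znrf3, and the share of all genes with this sign was not counted. The median log2 difference of all 12106 genes, bile duct minus pancreatic duct, was -0.0044. Bile duct minus pancreatic duct was -0.83 for Lgr5 (SE 0.61), -0.75 for Sp5 (SE 0.77), -0.45 for Lgr4 (SE 0.25) and -0.18 for Rnf43 (SE 0.16) on the log2 scale, each with an adjusted p of 1.00 by limma. Without pancreatic duct organoid 3 the difference was 0.0070 for Axin2 and -0.02 for Rnf43, while Lgr5, Lgr4, Sp5, Ascl2 and Prom1 kept their sign. Nkd1 and Tnfrsf19 were too low in organoids to be tested. Groups that did not overlap occurred in 6.68% of all tested genes.

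Single organoid libraries spread widely for some members. Sp5 spanned 30.7-fold over all 6 organoids, from pancreatic duct organoid 3 to bile duct organoid 2 (17.4 to 59.9). Within bile duct organoids it spanned 26.7-fold (15.1 to 52.4) and within pancreatic duct organoids 4.57-fold (3.54 to 5.97). Its SD over the 6 organoids was 1.12 on the log2 scale, which 1.60% of tested genes exceeded. Lgr5 spanned 10.2-fold from pancreatic duct organoid 2 to pancreatic duct organoid 1 (8.37 to 12.6) and 1.93-fold within bile duct organoids (1.64 to 2.26), with an SD over the 6 of 0.94 that 2.97% of genes exceeded. The SD over the 6 was 0.47 for Axin2, 0.40 for Lgr4, 0.36 for Znrf3, 0.32 for Prom1, 0.31 for Ascl2 and 0.20 for Rnf43, beside a median of 0.21 over all tested genes. Lgr5 and Sp5 were both high in pancreatic duct organoid 3, at 6.48 and 8.78 FPKM. Bile duct organoid 1, however, was second highest for Sp5 and among the 3 lowest for Lgr5. Pearson's r between the 2 genes over the 6 organoids was 0.02.

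**Figure D4:**
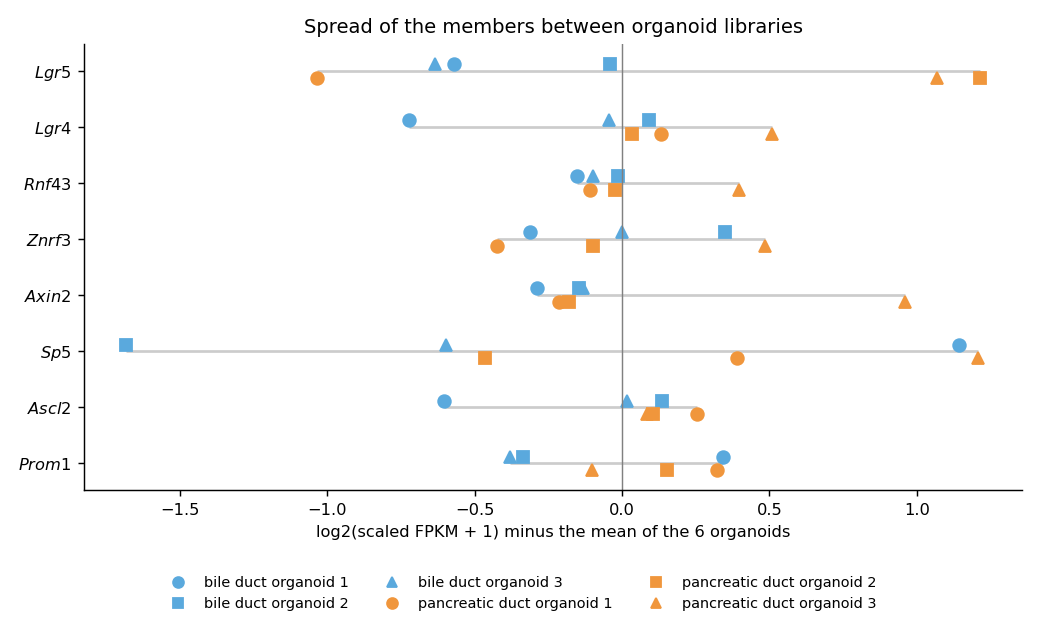
Deviation of each organoid from the mean of all 6 (horizontal axis, log2 of scaled FPKM + 1) for the 8 tested members, with 1 symbol per library. Sp5 reaches from -1.68 to 1.21 and Rnf43 from -0.15 to 0.40.

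Pancreatic duct organoid 3 was the highest of the 6 organoid libraries, after scaling, for Lgr4, Rnf43, Znrf3, Axin2 and Sp5, or 5 of the 8 tested members, and it was highest for 15.5% of all tested genes. Lgr5 peaked in pancreatic duct organoid 2, Ascl2 in pancreatic duct organoid 1 and Prom1 in bile duct organoid 1. Pancreatic duct organoid 3 also had the lowest sum of duct epithelium markers among the organoids, 5908 FPKM, and 528 FPKM of proliferation genes within the range of the others. Their part in its member levels was not tested.

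The other genes of the pathway are given by list, and a fallen gene that no organoid holds at 1 FPKM was tested through the epithelia alone, so that its direction followed from the filter. Of 10 Wnt ligands tested, 1 rose and 7 fell, 5 of these with no organoid at 1 FPKM. Among all genes tested 32.7% rose and 26.6% fell. Wnt7b rose by 4.26 (adjusted p = 0.000263, limma), from 7.11 and 1.82 FPKM in the epithelia to between 63.6 and 131 in the organoids. Wnt7a was at 2.35 and 2.33 FPKM in the epithelia, 66.0, 5.87 and 6.39 in bile duct organoids and 22.9, 73.8 and 6.16 in pancreatic duct organoids, and its difference of 2.39 did not pass (adjusted p = 0.111, limma). Wnt9a, which reached 1.14 FPKM in an organoid, fell by 1.96. Wnt5a, a ligand of non-canonical signalling, had 6.91 and 5.26 FPKM in the epithelia and at most 0.676 in organoids, and Wnt2b 3.64 and 2.66 against at most 0.369. Both R-spondins tested passed the filter through the epithelia alone. Rspo3 was at 5.88 and 3.06 FPKM in the epithelia and at most 0.478 in organoids, and Rspo1 at 4.13 and 5.64 against at most 0.0281 in organoids, whose medium supplied the R-Spondin-1 protein.

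Among 13 receptors and co-receptors tested, 2 rose and 6 fell, beside 32.7% and 26.6% of all genes tested. Of the 6 that fell, 5 had an organoid at 1 FPKM or more. The co-receptor Lrp5 rose by 1.69, from 15.1 and 14.0 FPKM to between 37.7 and 70.9, and Fzd5 rose by 0.80. Fzd4 fell by 4.19, from 25.2 and 42.4 FPKM to between 0.512 and 2.15, Fzd7 by 1.69 and Ror1 by 1.59. Of 13 secreted and membrane inhibitors tested, none rose and 10 fell, where 32.7% of all genes tested rose and 26.6% fell. None of those 10 reached 1 FPKM in an organoid, so their direction followed from the filter. Dkk3 had 40.5 and 28.0 FPKM in the epithelia and at most 0.102 in organoids, Sfrp1 22.3 and 23.6 against at most 0.273, and Sfrp5 11.2 and 21.5 against at most 0.0758. Notum, a Wnt deacylase, and the Dickkopf receptors Kremen2 and Kremen1 had differences of 0.64, 0.33 and -0.03 that did not pass. All 8 smooth muscle, all 8 endothelium and 9 of 10 fibroblast markers fell beside these genes, of which 7, 7 and 9 had no organoid at 1 FPKM, and the part of those cells was not tested.

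Inside the cell, 10 of 18 tested genes of the destruction complex and the TCF factors rose and 2 fell, beside 32.7% and 26.6% of all genes tested. Beta-catenin itself, Ctnnb1, rose by 1.13, from 113 and 118 FPKM to between 209 and 367, Gsk3a by 1.15 and Tcf7 by 0.98. The 2 that fell passed the filter through the epithelia alone, Tcf7l1 with 5.11 and 6.86 FPKM there and at most 0.101 in organoids, and Pygo1 with 1.06 and 2.08 against at most 0.0121. Of 13 other genes described as Wnt targets 7 rose and 4 fell: the cyclin gene Ccnd1 rose by 3.18, the adhesion receptor gene Cd44 by 3.00 and Myc by 2.54, while all 4 that fell had no organoid at 1 FPKM. Of these Apcdd1 had 12.01 and 11.2 FPKM in the epithelia and at most 0.183 in organoids, Bambi 4.41 and 6.15 against at most 0.291, and Nkd2, the homologue of Nkd1, 4.10 and 3.57 against at most 0.0698. Among 15 other stem and progenitor cell genes tested 7 rose and 4 fell, 1 of these with no organoid at 1 FPKM, where 26.6% of all genes tested fell. Slc12a2 rose by 2.41 and Epcam by 2.34, Hopx fell by 1.78, and Smoc2, the gene with no organoid at 1 FPKM, had 38.7 and 16.4 FPKM in the epithelia and at most 0.0177 in organoids. Olfm4, a crypt stem cell marker, was at 336 FPKM in fresh bile duct and 3.59 in fresh pancreatic duct, and its difference of -2.60 did not pass (adjusted p = 0.0820, limma). Tcf7, Lef1, Notum, Apcdd1 and Sox9 each stand in 2 of these lists. All 12 proliferation genes and 10 of 14 duct epithelium markers rose beside the genes of these lists, while the fibroblast, smooth muscle and endothelium lists fell as given above, and their part was not tested.

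**Figure D5:**
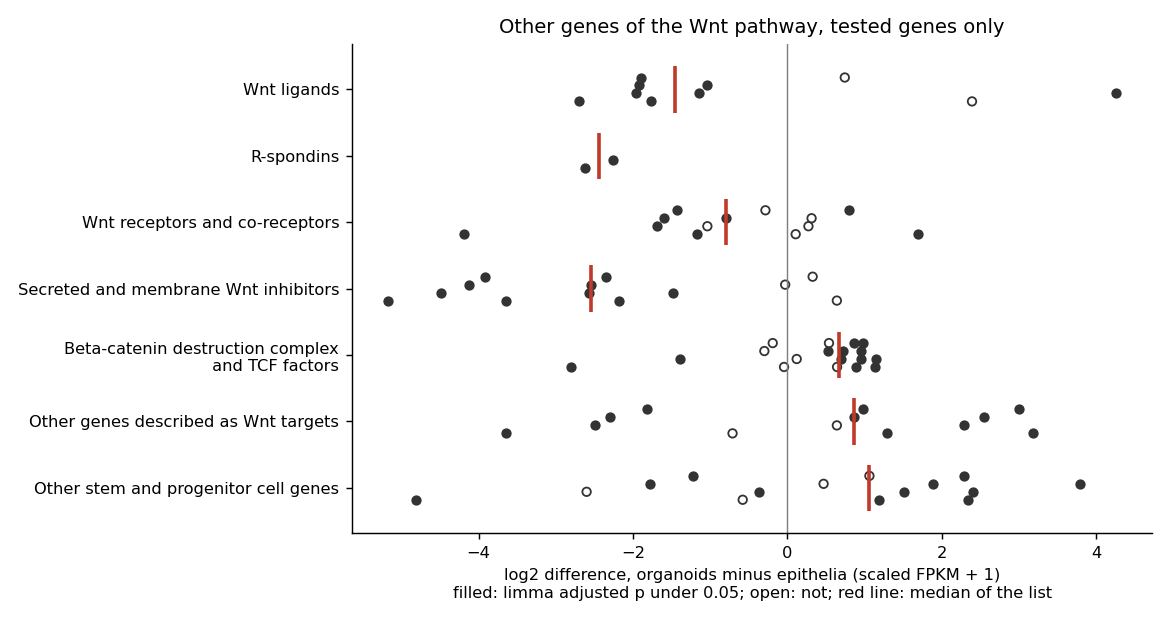
Log2 difference of organoids minus epithelia (horizontal axis, scaled FPKM + 1) for each tested gene of 7 lists. Filled points passed an adjusted p of 0.05 by limma, open points did not, and the red line is the list's median, which is 0.67 for the destruction complex and TCF factors.

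Over the 8 libraries, the genes most like each member in pattern were found by Pearson's r among genes with at least 5 FPKM in a library. These libraries share the split between epithelium and culture, so a high r can be common: 593 of 9841 genes had r of at least 0.95 with Rnf43, 1186 with Nkd1 and 1130 of 9842 with Tnfrsf19. It was rarer for the others, with 43 genes for Znrf3, 17 for Lgr4, 5 for Ascl2, 3 for Prom1, 1 for Lgr5 and 0 for Axin2 and Sp5. The closest to Rnf43 was Ehf (r = 0.996), to Znrf3 Golga4 (0.987), to Prom1 Atp10b (0.982), to Lgr4 Sgpp2 (0.981) and to Ascl2 Anks4b (0.980). The closest to Lgr5 was Kdm6b (0.955), to Axin2 Hdhd5 (0.940) and to Sp5 Pax9 (0.924). Nkd1 was closest to Adgrf5, Rasd2 and Lepr, and Tnfrsf19 to Col14a1, Dcn and Ddr2, of which Dcn belongs to the fibroblast list.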

How the data were processed

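Poly(A) RNA was sequenced from 8 libraries. The authors deposited 1 table of FPKM per gene and library, recognised from its values, since low values step in units that turn into whole reads when multiplied by exon length. By this, 28310 genes (90.7%) were whole in all 8 libraries to within 0.05 read. Bowtie2 2.2.3, HISAT2 2.1.0, TopHat2 and HTSeq 0.6.0 are named in the submitters' processing notes without role or order, and the annotation release and strand setting are not given in the sources used here. Gene coordinates matched GENCODE M21 (GRCm38) for 28635 of 31228 genes. For Tnfrsf19 they differed, and the exon length that gave whole reads, 4777, was used.

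The deposited FPKM values were scaled between libraries by an unweighted trimmed mean of log ratios, and log2(FPKM + 1) was tested with limma 3.58.1 in R 4.3.3 with an intensity trend and Benjamini-Hochberg adjustment over all genes tested, at 0.05. Genes needed 1 FPKM in at least 3 organoids, or in at least 2 of 8 libraries for organoids against epithelia. Comparisons with a single epithelium used a fold of at least 2 in scaled FPKM + 1, with every organoid on the same side. Counting intervals are exact, at 95%. Level plots and quoted levels are as deposited. All per-sample columns were matched to samples. Named genes were the members, the up to 3 highest and lowest tested genes of each pathway list, and the 3 genes most like each member. A gene of the stem and progenitor list that this rule names is not reported here. The members and lists were chosen with earlier results of these data known. Voom on recovered reads was added after seeing the data. The code was tested on simulated data.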

Additional observations from a re-analysis of the deposited data

Results flagged for a closer look

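Prom1 moved in opposite directions in the 2 organs. The difference of organoids from epithelium was -1.41 ± 0.41 (SD, n = 3) in bile duct and 1.45 ± 0.22 (SD, n = 3) in pancreatic duct, on the log2 scale, so that bile duct minus pancreatic duct was -2.86. All 3 bile duct organoids lay below their epithelium and all 3 pancreatic duct organoids above theirs. The difference was not tested, because each organ has 1 epithelium, and any error of either epithelium enters all 3 values of its organ. Marker lists moved with it: Paneth and goblet cell markers summed to 2091 FPKM in fresh bile duct and 57.8 to 158 in its organoids, intestinal absorptive markers to 708 and 81.8 to 112, and duct epithelium markers to 682 in fresh pancreatic duct and 5908 to 11596 in its organoids. In bile duct, the duct epithelium markers summed to 2740 FPKM in epithelium and to between 7089.9 and 10766 in organoids. Their part in the result was not tested.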

How the results depend on the processing

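Organoid groups: leaving out single libraries gave between 0 and 11 called genes (11 without pancreatic duct organoid 3, with 426 at an unadjusted p under 0.05), and no member was called under any of 14 alternatives. There the difference of Znrf3 ran from -0.17 to 0.27 and that of Axin2 from -0.57 to 0.0070. With the replicate number as a block, 0 genes were called and 293 had an unadjusted p under 0.05, so the block changed no call. Same-numbered organoids correlated in their deviations at -0.10, -0.44 and 0.48, and bile duct organoid 1 correlated best with pancreatic duct organoid 2 (0.65), so numbers were not taken as pairs.

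Organoids against epithelia: leaving out single libraries gave 4370 to 9193 called genes and 2 to 6 called members. The lowest counts came without pancreatic duct epithelium (4370 genes, 2 members) and without bile duct epithelium (4712 genes), where genes that passed the filter through both epithelia alone, Nkd1 and Tnfrsf19 among them, no longer pass it. In those fits the remaining epithelium is assumed to vary like the organoids. Voom on recovered reads called 7261 genes. Prom1 ran from -1.42 to 1.43 with single libraries left out and was -0.17 with median of ratios scaling. Ascl2 ran from -0.11 to 1.49. With a minimum of 5 FPKM, 1212 genes rather than 2005 differed at least 2-fold between the epithelia, and 5 members rather than 9 between pancreatic duct organoids and their epithelium, since low genes are no longer counted. Low reads limit Ascl2 and Sp5 in pancreatic duct epithelium (2 and 5 reads).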

Other observations

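Wnt7a, Wnt10a and the fibroblast list gene Fn1 were high in the same 2 organoid libraries. In bile duct organoid 1 and pancreatic duct organoid 2, Wnt7a had 66.0 and 73.8 FPKM, Wnt10a 2.66 and 6.10, and Fn1 166 and 189. In the other 4 organoids Wnt7a had 5.87 to 22.9 FPKM, Wnt10a at most 0.595 and Fn1 3.29 to 22.3. Col1a1 was at 0.0855 and 0.173 FPKM in the first libraries. The same 2 organoid libraries had the lowest sums of proliferation genes, 361 and 266 FPKM against 456 to 626 in the other 4, and the highest Epcam, 1003 and 788 FPKM against 357 to 433. They were also highest for Clu, 2625 and 2639 FPKM against 645 to 1708, and for the tight junction gene Cldn4, 452 and 489 against 45.2 to 179.6. These genes were singled out after their values were seen. Lgr5 was at 1.26 and 6.85 FPKM and Sp5 at 7.65 and 1.92 in the same libraries, so neither member followed this split.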
